A study of Mus musculus with 4 samples.

Results

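Mitochondrial ribosomal protein genes were followed across 4 RNA sequencing libraries of HT22 cells, a line of immortalised neurons from mouse hippocampus. They were chosen by name, as every gene whose Ensembl identifier maps to a protein-coding symbol made of Mrpl or Mrps and a number. The rule found 78 genes of the 20089 in the deposited tables, 49 named for the large subunit (Mrpl) and 29 for the small subunit (Mrps). All 78 were present in each of the 4 tables, none stood at 0 reads in any library, and all 78 passed the floor of 20 reads in the higher library of each comparison.

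Mitochondria keep a small genome that encodes subunits of the respiratory chain, and they translate it on their own ribosome. The RNA of that ribosome comes from mitochondrial DNA, whereas its proteins are encoded by nuclear genes, made in the cytosol and imported. Mammalian mitochondrial ribosomes carry counterparts of bacterial ribosomal proteins together with proteins that bacteria lack, and neurons depend on the respiratory chain for most of their ATP.

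The study crossed a lentivirus aimed at Neat1, the long noncoding RNA scaffold of nuclear paraspeckles, with the culture condition, and asked how mRNAs differ with Neat1 knockdown in unstressed and in stressed cells. The groups were knockdown cells under OGD (deprivation of oxygen and glucose, a cell model of ischaemia), control cells under OGD, knockdown cells in normal culture and control cells in normal culture. Knockdown cells were infected with the lentivirus against Neat1 and control cells with the control negative lentivirus, so all cells had been infected. Normal culture was DMEM/F12 medium with 10% FBS. All cells were HT22, labelled with the strain C57BL/6 and as hippocampal neurons. The sources used here do not give the duration of OGD, the sequence carried by the lentivirus or the number of clones. Each group held 1 library, so no difference below has a replicate check or a p-value.

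The libraries held 19066951 gene-assigned reads for knockdown cells under OGD, 17232866 for control cells under OGD, 20764430 for knockdown cells in normal culture and 18596774 for control cells in normal culture. Each deposited table pairs 2 libraries and gives the scaled counts of both, that is, reads divided by a size factor of that table. Levels of a gene are compared within 1 table only. Ratios are log2 ratios of scaled counts with 10 added to each side, which understates the ratio of low genes. Folds are taken from these ratios and so include the added 10. The 95% intervals are computed without the added 10 and cover counting error only. The words higher and lower count genes past a 2-fold ratio where a count is given, which is a threshold of size without a test. Neat1 itself stood at 730 scaled counts in knockdown cells and 1292 in control cells under OGD, a log2 ratio of -0.82 (-0.96 to -0.69). In normal culture it stood at 2475 scaled counts in knockdown cells and 3968 in control cells, a log2 ratio of -0.68 (-0.75 to -0.61). In FPKM, Neat1 stood at 10.47 in knockdown cells and 12.9 in control cells under OGD, a narrower gap than in scaled counts. In normal culture it stood at 29.69 and 51.04 FPKM. The log2 ratio of OGD to normal culture for Neat1 was -1.52 in knockdown cells and -1.30 in control cells. Control cells under OGD thus held less Neat1 by FPKM than knockdown cells in normal culture.

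The library of control cells in normal culture stood apart from the others. A list of 29 markers of neurons, oligodendrocytes, astrocytes, microglia and endothelium took 0.0342% of reads in knockdown cells under OGD, 0.0108% in control cells under OGD, 0.0115% in knockdown cells in normal culture and 0.229% in control cells in normal culture. The number of these markers at 0 reads was 1, 6, 5 and 0 in the same order of libraries. Rbfox3, which encodes the neuronal nuclear protein NeuN, had 89, 10, 4 and 1238 reads in that order, and Olig2, a factor of the oligodendrocyte lineage, had 6, 0, 0 and 263. The cells are labelled as hippocampal neurons, and the 10 markers of neurons ran between 1 read (Grin1 and Nefl) and 407 reads (Tubb3) in knockdown cells in normal culture. There Slc17a7, a glutamate transporter of excitatory neurons, had 6 reads, whereas Map2, a protein of dendrites, had 89 and Snap25, a protein of synaptic release, had 68. Because each group holds 1 library, no comparison could be repeated without the library of control cells in normal culture. It enters the comparison of knockdown with control cells in normal culture and that of OGD with normal culture in control cells, and neither of the remaining comparisons. In bulk RNA, fewer cells of a type and less RNA per cell cannot be told apart.

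The mitochondrial ribosomal protein genes took 0.529% of all reads in knockdown cells under OGD (exact binomial interval 0.526 to 0.532), 0.532% in control cells under OGD (0.529 to 0.536), 0.753% in knockdown cells in normal culture (0.749 to 0.757) and 0.689% in control cells in normal culture (0.685 to 0.693). Their share of reads was thus lower in both OGD libraries than in both libraries of normal culture, and the intervals of both OGD libraries overlapped. In control cells the typical gene was lower as well. With reads scaled by total counts, the median log2 ratio of OGD to normal culture there was -0.28 over the members and -0.34 over all genes tested. In knockdown cells the same medians were -0.44 and -0.01. Genes of the large subunit took 0.357%, 0.361%, 0.510% and 0.463% of reads in the same order of libraries, and genes of the small subunit took 0.172%, 0.171%, 0.243% and 0.226%.

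Levels per length, compared between genes as the deposited FPKM, spanned a wide range although the proteins are parts of 1 particle. The median was 75.2 FPKM in knockdown cells under OGD, 73.8 in control cells under OGD, 102 in knockdown cells in normal culture and 102 in control cells in normal culture. The highest level under OGD was that of Mrpl14, a conserved protein that binds ribosomal RNA in the large subunit, at 536 FPKM in knockdown cells and 453 in control cells. In normal culture the highest was Mrpl52, a large-subunit protein without a bacterial counterpart, at 867 FPKM in knockdown cells and 808 in control cells. Mrps21, the highest gene of the small subunit in each library, stood at 401 and 334 FPKM in knockdown and control cells under OGD, and at 527 and 450 FPKM in knockdown and control cells in normal culture. At the low end, Mrpl36, a short protein of the large subunit, stood at 10.2 and 6.95 FPKM in knockdown and control cells under OGD. Mrpl1, the protein of the mobile L1 stalk, had the lowest level in normal culture, 10.6 FPKM in knockdown cells and 8.51 in control cells.

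**Figure D1:**
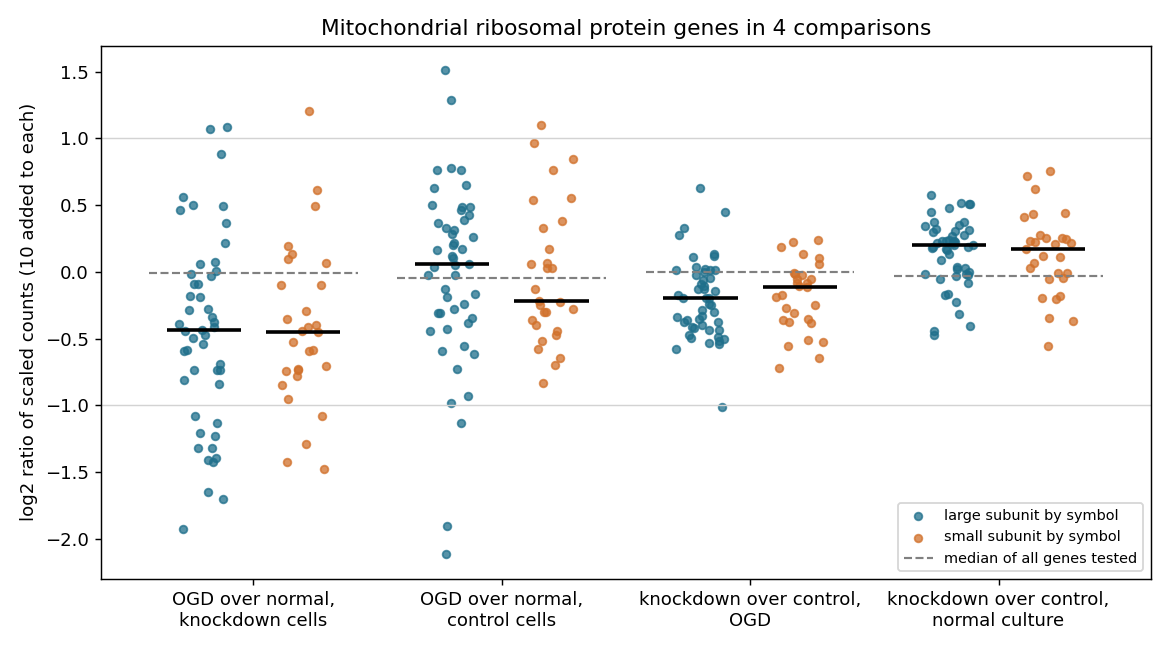
Log2 ratio of scaled counts (vertical axis, 10 added to each side) of the 78 genes in each of the 4 comparisons, with genes of the large and small subunit in separate columns of points, the median of each as a solid line and the median of all genes tested as a dashed line. The medians of all 78 genes are -0.44 for OGD in knockdown cells and 0.03 for OGD in control cells, and -0.19 for knockdown under OGD and 0.19 for knockdown in normal culture.

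Under OGD, most mitochondrial ribosomal protein genes stood lower in knockdown cells. Of the 78 genes, 59 had a log2 ratio of OGD to normal culture below 0, where 50.4% of the 14071 genes tested did, and 19 had one above 0, where 49.6% did. Over the members the median was -0.44, over all genes it was -0.01, and over the 6465 other protein-coding genes in the members' range of reads (in the higher library) it was 0.0016. By the 2-fold rule 16 were lower, where 17.1% of all genes were, and 3 were higher, where 18.9% of all genes were. At 1.5-fold 32 were lower and 5 were higher, where 28.6% of all genes were lower and 28.6% were higher. Of the 16 lower genes 12 were of the large subunit and 4 of the small subunit. The whole list of markers had a median log2 ratio of 2.76 in the same comparison, with 16 of 20 markers past the floor at least 2-fold higher under OGD and 1 lower, and their part in the result was not tested.

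In control cells the same stress showed a different balance. The median log2 ratio of OGD to normal culture was 0.03 with the deposited scaling, whereas it was -0.28 with scaling by total counts and -0.29 with FPKM, scalings that put the median of all genes at -0.34 and -0.33. With the deposited scaling the median of all genes was -0.04. Of the members 40 were above 0, where 47.8% of the 14101 genes tested were, and 38 were below, where 52.2% were. The distance between the members' median and that of all genes was 0.07 with the deposited scaling and between 0.04 and 0.07 with the others. Over the 6687 other protein-coding genes in the members' range of reads the median was 0.11, so the members lay above all genes and below these. By the 2-fold rule 3 members were higher, where 10.4% of all genes were, and 3 were lower, where 20.4% of all genes were. With total counts these were 1 higher and 8 lower. At 1.5-fold 11 members were higher and 11 lower, where 22% of all genes were higher and 30.2% lower. The markers had a median log2 ratio of -3.29 here, with 16 of 21 past the floor lower and 1 higher, and their part in the result was not tested.

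Mrpl41, which encodes a large-subunit protein without a bacterial counterpart, had the lowest ratio in both kinds of cell. In knockdown cells it stood at 303 scaled counts under OGD and 1176 in normal culture, 3.79-fold lower under OGD (log2 ratio -1.92, interval -2.15 to -1.77). Control cells held 243 scaled counts under OGD and 1087 in normal culture, 4.34-fold lower (-2.12, -2.38 to -1.95). Both OGD libraries thus lay far below both libraries of normal culture for this gene, which is found at chr2:24974117-24975098 on the minus strand of GRCm38.

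Mrpl36 was next in control cells. It stood at 139.9 scaled counts under OGD and 461 in normal culture in knockdown cells (3.14-fold lower, log2 ratio -1.65, interval -2.01 to -1.44), and at 94.9 and 383 in control cells (3.74-fold lower, -1.90, -2.37 to -1.67). Mrpl20, which in bacteria helps the large subunit to assemble, stood at 2486 scaled counts under OGD and 5740.3 in normal culture in knockdown cells, a log2 ratio of -1.20. Control cells held 2201 and 4829, a log2 ratio of -1.13. Mrpl41, Mrpl36 and Mrpl20 were the 3 genes at least 2-fold lower under OGD in both kinds of cell, and each of the 3 had a log2 ratio below -1 under every scaling tried.

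At the other end, Mrpl45 was the gene with the highest ratio in control cells. Its protein lies beside the exit of the peptide tunnel, where the mammalian mitochondrial ribosome meets the inner membrane. It stood at 2875 scaled counts under OGD and 1364 in normal culture in knockdown cells (2.10-fold higher, log2 ratio 1.07, interval 0.98 to 1.17), and at 2871 and 1001 in control cells (2.85-fold higher, 1.51, 1.42 to 1.62). With FPKM the ratio in knockdown cells was 0.91. Mrps31, a small-subunit protein without a bacterial counterpart, stood at 1091 scaled counts under OGD and 468 in normal culture in knockdown cells (2.31-fold higher, 1.21, 1.07 to 1.38). Control cells held 1083 and 498 (2.15-fold higher, 1.10, 0.97 to 1.27), a ratio of 0.80 with total counts. Mrpl45 and Mrps31 were the 2 genes at least 2-fold higher under OGD in both kinds of cell.

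Mrpl9, the counterpart of bacterial L9, stood at 1620.05 scaled counts under OGD and 872 in normal culture in knockdown cells, a log2 ratio of 0.89 (0.78 to 1.01). In control cells it stood at 1832 and 745, a log2 ratio of 1.29 (1.18 to 1.42), which was 0.98 with total counts. Mrpl32, a protein that the m-AAA protease of the inner membrane trims before it joins the large subunit, stood at 1229.7 scaled counts under OGD and 574 in normal culture in knockdown cells, 2.12-fold higher (1.09, 0.96 to 1.24). The control libraries had 973 and 627, 1.54-fold higher (0.63, 0.49 to 0.78). OGD libraries were above those of normal culture for both genes in both kinds of cell.

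**Figure D2:**
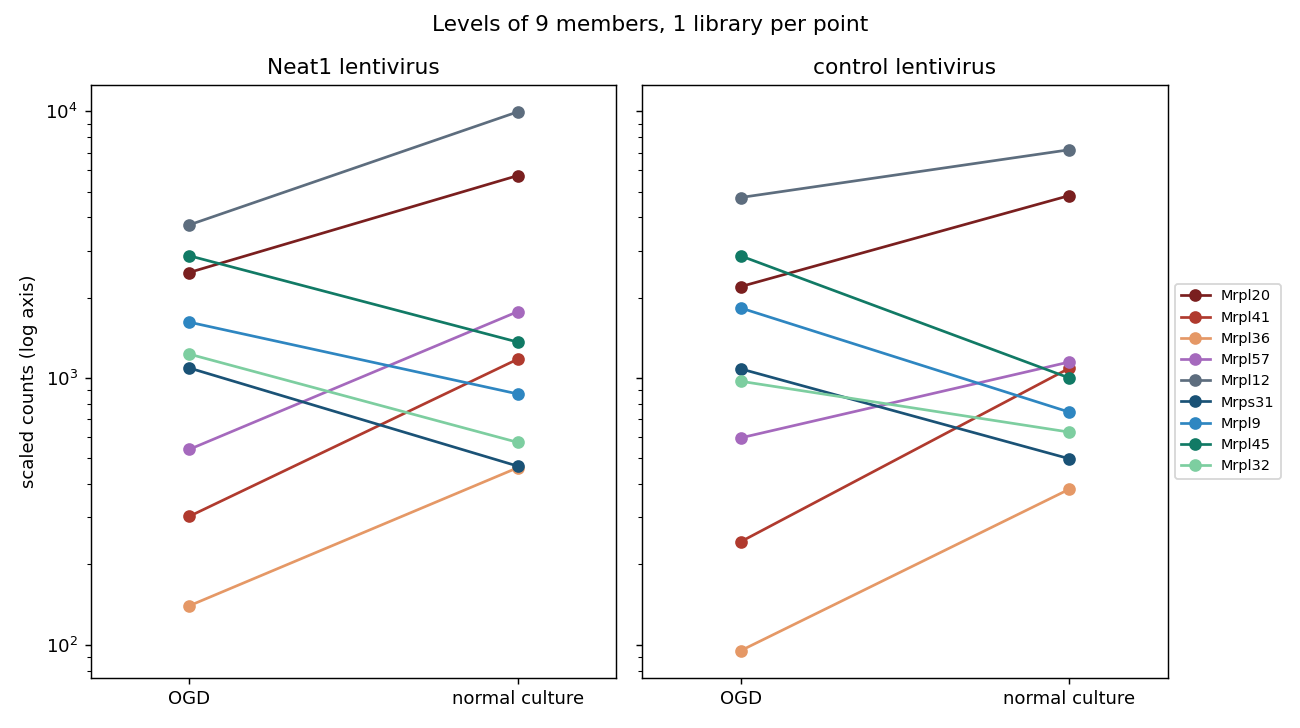
Scaled counts (vertical log axis) of 9 genes in the OGD and normal-culture libraries of knockdown cells (Neat1 lentivirus, left) and control cells (right), 1 library per point. Mrpl41, Mrpl36, Mrpl20, Mrpl57 and Mrpl12 slope up towards normal culture, and Mrpl45, Mrpl9, Mrps31 and Mrpl32 slope down, in both panels.

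The sequences before the annotated start sites of Mrpl45, Mrpl9 and Mrpl41 are shown because these genes share a particle and yet stood at opposite ends of this range under OGD. That of Mrps12, which stood at neither end, is shown for its YY1 match and for the neighbouring gene described further on. Each run holds the 250 bases before the start, read 5′ to 3′ on the strand of the gene, from RefSeq on GRCm38.p6. Capitals mark matches, on either strand, to the NRF1 site (GCGCA and GCGC parted by 1 base of any kind) or to the YY1 core AAGATGGC. NRF1 and YY1 are transcription factors known to act at nuclear genes for mitochondrial proteins.
Mrpl45, chr11:97315466-97315715, plus strand: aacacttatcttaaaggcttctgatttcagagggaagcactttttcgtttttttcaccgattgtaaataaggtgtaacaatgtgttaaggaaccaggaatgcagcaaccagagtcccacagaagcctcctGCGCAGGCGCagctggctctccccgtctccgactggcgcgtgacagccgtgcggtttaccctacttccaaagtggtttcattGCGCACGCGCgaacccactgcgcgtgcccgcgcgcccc
Mrpl9, chr3:94443086-94443335, plus strand: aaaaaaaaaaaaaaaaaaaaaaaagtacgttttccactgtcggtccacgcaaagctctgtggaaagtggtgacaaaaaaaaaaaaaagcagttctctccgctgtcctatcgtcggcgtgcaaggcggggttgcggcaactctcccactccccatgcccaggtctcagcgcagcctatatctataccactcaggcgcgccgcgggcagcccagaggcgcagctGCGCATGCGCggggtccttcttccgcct
Mrpl41, chr2:24975099-24975348, minus strand: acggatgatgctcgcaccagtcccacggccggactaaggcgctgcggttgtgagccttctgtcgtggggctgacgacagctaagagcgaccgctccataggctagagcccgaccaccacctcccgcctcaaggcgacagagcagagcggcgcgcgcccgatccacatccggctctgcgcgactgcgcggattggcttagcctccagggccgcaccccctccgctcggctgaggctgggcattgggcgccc
Mrps12, chr7:28741822-28742071, minus strand: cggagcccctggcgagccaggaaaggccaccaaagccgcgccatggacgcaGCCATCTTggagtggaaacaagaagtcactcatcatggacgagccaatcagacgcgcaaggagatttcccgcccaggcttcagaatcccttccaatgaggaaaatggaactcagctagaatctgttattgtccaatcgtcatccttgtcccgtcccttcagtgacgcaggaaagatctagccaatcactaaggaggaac

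In a window of 300 bases, 250 before and 50 after the start, 69 of the 78 genes had a RefSeq sequence. The NRF1 site was found, on either strand, in 13 of 69 (18.8%) and in 5.19% of 27025 genes with such a window. These 27025 genes were not limited to protein-coding genes or to genes with reads here, so they are unlike the members. The ETS core CCGGAAG, the motif bound by GABP, was found in 37.7% of the members and 9.93% of all genes. The YY1 core was found in 17.4% of the members and 3.19% of all genes. Its first 3 letters are the last 3 of the ETS core, so that these motifs can overlap. The core of the hypoxia response element, ACGTG, was found in 23.2% of the members and 21.8% of all genes, TATAAA in 7.25% and 15.7%, and the ATF4 composite element TGATGNAA in 0 of 69 members and 4.51% of all genes. Mrpl45 and Mrpl9 held an NRF1 match, Mrps12 held a YY1 and an ETS match, and the window of Mrpl41 held none of the 6 motifs. NRF1 matches stood at both ends of the range. Mrpl32, at least 2-fold higher under OGD in knockdown cells, held one, and so did Mrpl57, Mrpl12 and Mrpl17, at least 2-fold lower there. The other lower genes with a window held no NRF1 match. Mrps31, at least 2-fold higher in both kinds of cell, held none of the 6 motifs. The 13 genes with an NRF1 match had a median log2 ratio of OGD to normal culture of -0.29 in knockdown cells and 0.29 in control cells, and those without had -0.46 and 0.00. The 26 genes with the ETS core lay the other way, at -0.64 and -0.16, and those without had -0.39 and 0.05. For the YY1 core the medians were -0.39 and -0.13 with a match, and -0.45 and 0.03 without. For ACGTG they were -0.43 and 0.01 with, and -0.44 and 0.03 without. The 5 genes with TATAAA had -0.09 and 0.17, and those without had -0.44 and 0.00. A match is a stretch of letters and not an observed binding site.

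The genes kept much of their order under OGD in the 2 kinds of cell. Across the 78 genes the OGD ratios of knockdown cells and of control cells, which share no library, had a Pearson r of 0.83 and a Spearman rho of 0.81. Over 13086 genes tested in both comparisons r was 0.16 and rho was 0.44. These are correlations across genes, which are not independent replicates, and the genes share library depth and counting in each comparison. The 13086 genes were not matched to the members' range of reads, so the 2 sets are unlike. They include markers such as Nrgn, at 4.09 in knockdown cells and -8.31 in control cells.

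The ratios of knockdown cells lay lower than those of control cells for 67 of the 78 genes, where they did for 56.4% of all genes tested in both. The median difference was -0.46 over the members and -0.12 over all genes. With total counts it was -0.15 over the members and 0.19 over all genes, and with FPKM -0.14 and 0.21, and the ratio was then lower in knockdown cells for 49 and 48 of the members, where it was for 38.1% and 36.6% of all genes. In both kinds of cell 36 genes were below 0 and 17 were above. A further 23 were below 0 in knockdown cells and above 0 in control cells, and 2 were the other way round. With total counts 49 were below 0 in both kinds of cell, and 10 were below 0 in knockdown cells and above 0 in control cells. Such joint signs were not counted over all genes.

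Mrps28, the counterpart of bacterial S1, had the largest difference of this kind. In knockdown cells it stood at 579 scaled counts under OGD and 1569 in normal culture, 2.68-fold lower under OGD (log2 ratio -1.42, interval -1.58 to -1.30). In control cells it stood at 720.2 and 838, 1.16-fold lower (-0.22, -0.37 to -0.07). Mrps30, named for the small subunit but placed in the large subunit by structures, stood at 1209.8 and 1152 scaled counts in knockdown cells under OGD and in normal culture (0.07, -0.05 to 0.19), and at 1373 and 698 in control cells (0.97, 0.85 to 1.11). Mrps27, a pentatricopeptide repeat protein of the small subunit, stood at 529 and 566 in knockdown cells under OGD and in normal culture (-0.10, -0.27 to 0.08), and at 497 and 272 in control cells (0.85, 0.66 to 1.08). For Mrps30 and Mrps27 the OGD library was well above that of normal culture in control cells, whereas the 2 libraries of knockdown cells differed by no more than counting error. No test of these differences between differences was possible.

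**Figure D3:**
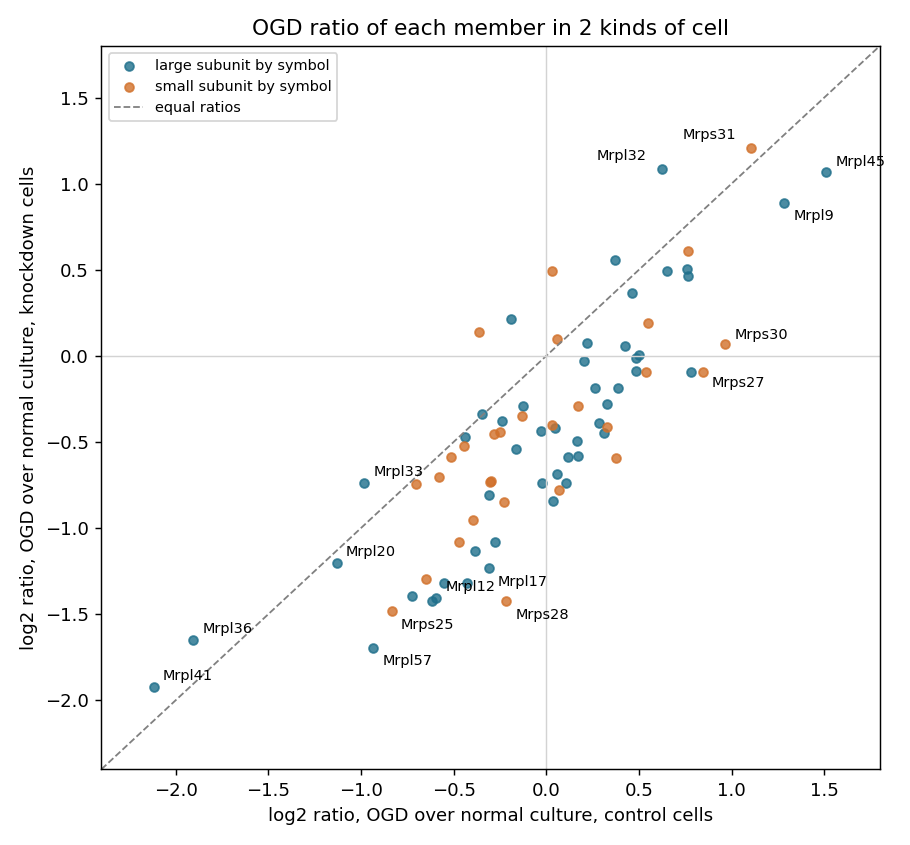
Log2 ratio of OGD to normal culture of each of the 78 genes in knockdown cells (vertical axis) and in control cells (horizontal axis), with genes of the large and small subunit in 2 colours and a dashed line where both ratios are equal. The points run along the line, with r of 0.83, and 67 of the 78 lie below it.

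The other genes at least 2-fold lower under OGD in knockdown cells covered the parts of both subunits. Mrpl12, the stalk protein that contacts translation factors, stood at 3749.5 scaled counts under OGD and 9952 in normal culture in knockdown cells (log2 ratio -1.41, interval -1.46 to -1.35). In control cells it stood at 4750.5 and 7174 (-0.59, -0.65 to -0.54). It had more reads than any other member in both libraries of normal culture. Mrpl22, which lines the peptide exit tunnel, had log2 ratios of -1.40 in knockdown cells and -0.73 in control cells, and Mrpl17, found near that exit, had -1.23 and -0.31.

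Mrpl57, Mrpl52, Mrpl51 and Mrpl40, large-subunit proteins without a bacterial counterpart, and Mrpl55, which has one, had log2 ratios between -1.70 and -1.14 in knockdown cells and between -0.93 and -0.39 in control cells. Mrpl57 had the second lowest ratio in knockdown cells, at 539.7 scaled counts under OGD and 1773 in normal culture. Mrpl34, the short counterpart of bacterial L34, had -1.08 and -0.27. In the small subunit Mrps25, which bacteria lack, had -1.48 and -0.83, and Mrps24, the counterpart of bacterial S3 at the mRNA entry, had -1.29 and -0.65. Mrps16, which in bacteria takes part in assembly of the small subunit, had -1.08 and -0.47. For each of these genes the ratio was further below 0 in knockdown cells than in control cells.

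Under OGD, knockdown cells held slightly less of most members than control cells with the deposited scaling. Of the 78 genes 60 had a log2 ratio below 0, where 50.3% of the 13388 genes tested did, and 18 had one above 0, where 49.7% did. The median was -0.19 over the members, -0.0036 over all genes and -0.04 over the 8438 other protein-coding genes in the members' range of reads. With total counts the median was 0.013 against 0.19 over all genes, and with FPKM 0.026 against 0.19, so the sign of the members' median depends on the scaling. The distance between members and all genes was -0.19 with the deposited scaling, -0.18 with total counts and -0.17 with FPKM. By the 2-fold rule 1 member was lower, where 4.1% of all genes were, and 0 were higher, where 10.4% of all genes were. At 1.5-fold 3 were lower and 1 was higher, where 12% of all genes were lower and 18.7% were higher. The markers had a median log2 ratio of 2.08, with 15 of 20 past the floor higher and 1 lower, and their part in the result was not tested.

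Mrpl17 was the gene at least 2-fold lower, at 698 scaled counts in knockdown cells and 1415 in control cells (log2 ratio -1.01, interval -1.15 to -0.89), and it was under 2-fold with total counts (-0.81). Mrps16 stood at 938 and 1553 (-0.72), and Mrps6, the counterpart of bacterial S6, at 599 and 944 (-0.65). Mrpl40 had a log2 ratio of -0.58 and Mrps23, a small-subunit protein without a bacterial counterpart, had -0.55. The highest was Mrpl33, the shortest member by coding length, at 1052 and 679 (0.62, 0.49 to 0.78). Mrpl1 had 0.45, Mrpl2, a protein next to the peptidyl transferase centre, had 0.28 and Mrps17, which binds ribosomal RNA in the small subunit, had 0.24. Mrpl36 had 0.33 with an interval of -0.05 to 0.77, which includes 0.

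In normal culture, the knockdown library held slightly more of most members than the control library. Of the 78 genes 54 had a log2 ratio above 0, where 48% of the 14554 genes tested did, and 24 had one below 0, where 52% did. The median was 0.19 over the members and -0.03 over all genes. None was 2-fold higher, where 6.29% of all genes were, and none was 2-fold lower, where 16.3% of all genes were. Of the 6331 other protein-coding genes in the members' range of reads, 46 were 2-fold higher and 422 lower, with a median of 0.0079. At 1.5-fold 3 members were higher, where 13.3% of all genes were, and 0 were lower, where 23.2% of all genes were. The markers had a median log2 ratio of -4.33 here, with 17 of 21 past the floor lower and 0 higher, and their part in the result was not tested.

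The 3 genes past 1.5-fold belong to the small subunit. Mrps27 stood at 564 scaled counts in knockdown cells and 329.9 in control cells (log2 ratio 0.76, interval 0.57 to 0.98). Mrps18c, the member of the Mrps18 family that takes the place of bacterial S18, stood at 1323 and 801 (0.72, 0.60 to 0.85). Mrps28 stood at 1564 and 1016 (0.62, 0.51 to 0.74). Next came Mrpl34 at 0.58 and Mrpl19, the counterpart of bacterial L19 at the subunit interface, at 0.51. All 5 stood higher in knockdown cells than counting error spans.

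The lowest ratios in normal culture were those of Mrps22, a small-subunit protein without a bacterial counterpart, at 643 scaled counts in knockdown cells and 947 in control cells (-0.55, -0.71 to -0.41), and of Mrpl43, which bacteria also lack, with a log2 ratio of -0.47. Mrpl4, which lines the peptide exit tunnel, had a log2 ratio of -0.44, Mrpl32 had -0.40 and Mrps31 had -0.37. Each of these 5 was lower in knockdown cells.

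The members' knockdown ratios in the 2 cultures, which share no library, had an r of 0.03 and a rho of 0.02 across the 78 genes. Over 12856 genes tested in both, a set not matched to the members' range of reads, r was -0.35 and rho was -0.05. Of the 78 genes 41 were below 0 under OGD and above 0 in normal culture, and 5 were the other way round. A further 13 were above 0 in both cultures and 19 were below 0 in both. With total counts the number below 0 under OGD and above 0 in normal culture was 26, and 15 were the other way round. These joint signs were not counted over all genes. The knockdown ratio was lower under OGD than in normal culture for 62 of the 78, where it was for 52.2% of all genes tested in both. With total counts it was lower for 49 of the 78 and for 38.0% of all genes. Mrps28 was the gene with the widest gap, at -0.51 under OGD and 0.62 in normal culture. Mrpl45 had log2 ratios of -0.20 under OGD, which was 0.01 with total counts, and 0.16 in normal culture, and Mrpl12 had -0.54 and 0.19.

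The medians of the subunits lay within 0.28 of each other in each comparison. In knockdown cells under OGD against normal culture the median log2 ratio was -0.44 for the large subunit and -0.45 for the small subunit, a difference of 0.02. The same medians in control cells were 0.06 for the large and -0.22 for the small subunit, a difference of 0.28, and among the 45 members whose exons overlap no other annotated gene the difference was 0.02. For knockdown under OGD the medians were -0.20 for the large and -0.12 for the small subunit, and for knockdown in normal culture they were 0.20 and 0.17. Within each subunit the genes spread far more than the medians differed. In control cells the OGD ratios ran between -2.12 and 1.51 in the large subunit and between -0.83 and 1.10 in the small subunit, so that all 3 members at least 2-fold lower were of the large subunit.

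Structures of the mammalian ribosome place Mrps30 and Mrps18a in the large subunit, and Mrps36 is now known as a subunit of the alpha-ketoglutarate dehydrogenase complex. Counted in this way there were 51 large and 26 small members, and the large minus small difference between the medians was 0.14 for OGD in knockdown cells and 0.32 in control cells, and -0.05 for knockdown under OGD and 0.08 in normal culture. Mrps36 had log2 ratios of -0.45 and -0.28 for OGD in knockdown and control cells, and of 0.13 and 0.23 for knockdown under OGD and in normal culture. The Mrps18 paralogues differed from each other: OGD went with log2 ratios of -0.29 for Mrps18a, -0.72 for Mrps18b and -0.59 for Mrps18c in knockdown cells, and of 0.17, -0.30 and 0.38 in control cells, where with total counts the values were -0.14, -0.61 and 0.07.

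Genes whose proteins have a bacterial counterpart (48) and genes whose proteins do not (30) had close medians. Under OGD these were -0.48 and -0.41 in knockdown cells and 0.04 and 0.00 in control cells. With knockdown they were -0.18 and -0.19 under OGD and 0.19 and 0.20 in normal culture.

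Mitochondrial ribosomal protein genes are short, with a median coding length of 582 bases (195 to 1326) and 5 exons, against 1392 bases and 9 exons over 13061 protein-coding genes with at least 20 reads in a library. Among the 78 genes the OGD ratio went with coding length. The 39 members of shorter coding length had a median log2 ratio of -0.59 in knockdown cells and -0.22 in control cells, and the 39 longer ones had -0.29 and 0.16. Spearman's rho between coding length and the OGD ratio was 0.46 in knockdown cells and 0.49 in control cells across the 78 genes, and 0.15 and 0.01 across all protein-coding genes tested. For the knockdown ratios rho was -0.09 under OGD and -0.10 in normal culture. Points of such a correlation share their libraries. Between exon number and the OGD ratio rho was 0.42 in knockdown cells and 0.41 in control cells, and 0.17 and 0.14 across all protein-coding genes tested. The link was weaker for the length of the whole transcript, with rho of 0.25 in both kinds of cell, and 0.12 and -0.04 across all protein-coding genes. For the GC percentage of the transcript rho was -0.25 in knockdown cells and -0.20 in control cells, and -0.01 and -0.12 across all protein-coding genes.

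**Figure D4:**
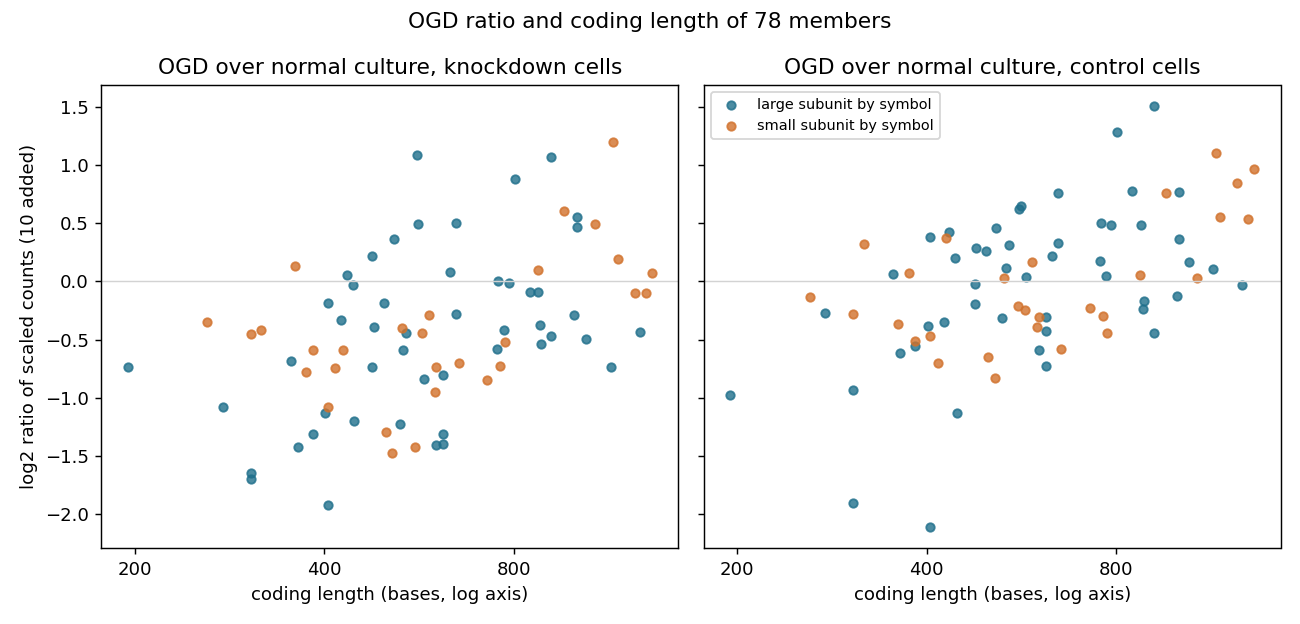
Log2 ratio of OGD to normal culture (vertical axis) against coding length in bases (horizontal log axis) of the 78 genes in knockdown cells (left) and control cells (right), coloured by subunit. The ratios are higher towards longer coding lengths, with rho of 0.46 in knockdown cells and 0.49 in control cells.

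Members lie on 17 chromosomes, 11 of them on chromosome 11, and some start near the start of another gene. A protein-coding gene starts on the opposite strand within 1000 bases upstream of 18 of the 78 (23.1%), against 9.98% of the 13061 protein-coding genes above. For OGD some such neighbours lay on the same side of 0 in both kinds of cell, as did Mrpl40 with Hira and Mrpl41 with Pnpla7. Mrpl40 had log2 ratios for OGD of -1.32 in knockdown cells and -0.43 in control cells, where Hira had -0.50 and -0.35. Other neighbours lay on opposite sides of 0. Mrps12, the protein of the decoding centre, starts 172 bases from Sars2, which encodes the mitochondrial seryl-tRNA synthetase. Mrps12 had log2 ratios for OGD of -0.74 in knockdown cells and -0.70 in control cells, and Sars2 had 0.07 and 0.67. Mrpl32 starts 75 bases from Psma2, a proteasome subunit gene, and had 1.09 and 0.63 where Psma2 had -0.42 and -0.22. Mrpl57 starts 49 bases from Ska3, a kinetochore gene, and had -1.70 and -0.93 where Ska3 had 0.08 and 0.66.

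Exons of 33 members overlap another annotated gene, 8 of them on the same strand. The sources used here do not say whether reads were counted by strand, so the reads of overlapping genes may not be separable. Mrps11 and Mrpl46, named here after their values were seen, overlap head to head on chromosome 7. They had log2 ratios for OGD of -0.44 and -0.09 in knockdown cells and -0.25 and 0.78 in control cells. Of the pseudogenes of members in the tables, Mrpl23-ps1 had between 415 and 487 reads in each library and Mrpl48-ps between 66 and 146, and how reads were divided between Mrpl23 or Mrpl48 and these copies is not given.

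Proteins of the mitochondrial ribosome with other symbols were close to the members. Dap3, a GTP-binding protein of the small subunit, Ptcd3, Chchd1, Aurkaip1 and Gadd45gip1 had a median log2 ratio for OGD of -0.43 in knockdown cells and -0.19 in control cells, and for knockdown of -0.24 under OGD and 0.13 in normal culture. None of the 5 passed 2-fold. Dap3 was the highest under OGD, at 0.34 in knockdown cells and 0.84 in control cells.

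Of 28 genes for assembly of the ribosome and modification of its RNA, 27 passed the floor for OGD in knockdown cells, of which 7 were at least 2-fold lower and 3 higher, with a median of -0.40. In control cells 2 of 28 were lower and 3 were higher, with a median of -0.28. Mettl15, a methyltransferase of the small-subunit RNA, had log2 ratios for OGD of 2.15 in knockdown cells and 1.45 in control cells, and Rpusd4, a pseudouridine synthase, had 1.35 and 1.47. Ybey, an endonuclease known from bacteria for trimming ribosomal RNA, had -4.15 and -1.45, and Mrm3, a methyltransferase of the large-subunit RNA, had -2.43 and -0.99. Some of these ratios rest on few reads. Ybey had 7 reads in knockdown cells and 12 in control cells under OGD, and 310 and 64 in normal culture. Mettl15 had 171 and 111 reads under OGD, and 34 and 47 in normal culture. For knockdown 3 of 26 were lower and 1 was higher under OGD, and 1 of 28 was lower and 2 were higher in normal culture. Of all genes tested for OGD, 17.1% were lower and 18.9% higher in knockdown cells, and 20.4% and 10.4% in control cells. Of those tested for knockdown, 4.1% were lower and 10.4% higher under OGD, and 16.3% and 6.29% in normal culture.

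Mitochondrial translation factors (16 genes) had median log2 ratios for OGD of 0.08 in knockdown cells, with 5 lower and 0 higher, and -0.05 in control cells, with 2 lower and 1 higher. In knockdown cells Oxa1l, a protein that inserts new chains into the inner membrane, was the highest at 0.97 and had 0.76 in control cells, and Mtfmt, the formyltransferase of the initiator tRNA, was the lowest at -1.27 and had 0.05. In control cells the highest was Mrrf, the factor that recycles the ribosome after termination, with 0.52 and 1.37. The lowest there was Guf1, a GTPase related to elongation factor 4 of bacteria, with 0.64 in knockdown and -2.11 in control cells. In control cells Guf1 had 28 reads under OGD and 200 in normal culture. For knockdown the medians were 0.07 under OGD, with 0 lower and 1 higher, and 0.24 in normal culture, with 1 lower and 0 higher. Of all genes tested for OGD, 17.1% were lower and 18.9% higher in knockdown cells, and 20.4% and 10.4% in control cells. Of those tested for knockdown, 4.1% were lower and 10.4% higher under OGD, and 16.3% and 6.29% in normal culture.

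The RNAs that the ribosome translates were lower under OGD in most cases. Of 13 mitochondrially encoded messenger RNAs, 9 were at least 2-fold lower in knockdown cells and 6 in control cells, and none was higher. Of all genes tested 17.1% were lower and 18.9% higher in knockdown cells, and 20.4% and 10.4% in control cells. The medians of the 13 were -1.31 and -0.74. The lowest was mt-Nd1, a complex I subunit, at -1.77 and -1.61, whereas the highest was mt-Atp8, an ATP synthase subunit, in knockdown cells, at 0.20 and -0.43, and mt-Co3, a cytochrome c oxidase subunit, in control cells, at -0.26 and 0.28. Both ribosomal RNAs of the particle differed between the 2 kinds of cell. The RNA of the small subunit, mt-Rnr1, had log2 ratios for OGD of 0.44 in knockdown cells and 1.97 in control cells, and that of the large subunit, mt-Rnr2, had -0.51 and 1.70. With knockdown mt-Rnr1 had -0.65 under OGD and 0.80 in normal culture, and mt-Rnr2 had -1.17 and 0.96. Together they took 0.132% of reads in knockdown and 0.215% in control cells under OGD, and 0.138% and 0.0756% in normal culture. The 13 messenger RNAs took 1.90%, 1.74%, 3.18% and 3.33% in the same order. The lowest share of the ribosomal RNAs was in control cells in normal culture, the library that stood apart. The part of library preparation in these ratios was not tested. The protein genes and the RNAs of the particle stood at different ratios in the same libraries.

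**Figure D5:**
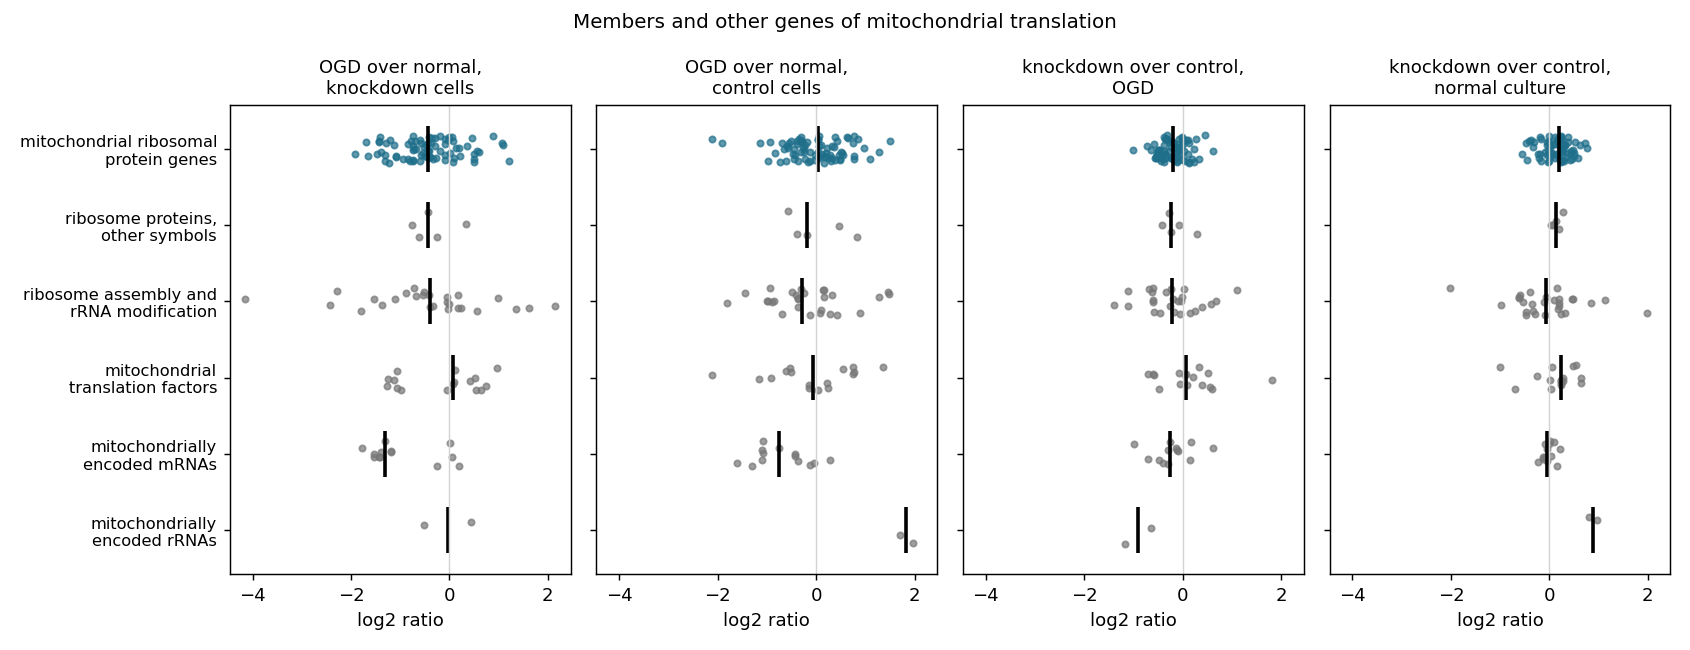
Log2 ratio (horizontal axis) of the 78 members and of 5 lists of other genes of mitochondrial translation in the 4 comparisons, 1 point per gene past the floor, with the median as a vertical bar. For OGD in knockdown cells the medians are -0.44 for the members and -1.31 for mitochondrially encoded messenger RNAs, and for OGD in control cells both ribosomal RNAs lie to the right of every member.

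Genes known to respond to low oxygen served as a check of the OGD label. All 10 of them were at least 2-fold higher under OGD in both kinds of cell, with a median log2 ratio of 2.88 in knockdown cells and 2.42 in control cells, beyond the highest ratio of any member. Of all genes tested 18.9% were higher in knockdown cells and 10.4% in control cells.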

How the data were processed

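Total RNA of HT22 cells was profiled as 4 libraries, 1 for each group, and grouped by the labels. Isolation was with TRIzol, and RNA was fragmented to about 200 base pairs and copied to cDNA with deoxy-UTP in 1 strand, per the labels' protocols. TopHat2 served for alignment and mm10 as the build, per the submitters' processing notes. Which program counted the reads, on which annotation and whether by strand, is not given in the sources used here. The authors deposited 4 tables, each with a signal per library, which per the file headers are mean counts scaled by size factors. The deposited columns headed by sample number were read as FPKM, from their values.

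Members were found through GENCODE mouse release 21 (GRCm38), which matched 19950 of 20089 genes. The members and all gene lists were chosen with earlier results of these data known. Whole reads were recovered from the scaled counts (100% whole at a tolerance of 1e-06 of a read) and served for the floor of 20 reads and for exact conditional binomial intervals at 95%. No count model was fitted, because each group holds 1 library. Genes named were, among members with at least 100 reads, the 5 highest and 5 lowest in each comparison, all past 2-fold, the 3 highest of each subunit by FPKM and a short set of fixed names; of each other list, from the 2 highest and 2 lowest in each comparison. TMM factors, computed with edgeR 4.0.16 in R 4.3.3 as an alternative scaling, were between 0.893 and 1.05. Python 3.11.15, numpy 2.4.6, pandas 2.3.3, scipy 1.17.1 and matplotlib 3.10.9 were used. The ratio script was tested on simulated data. Alternatives were 1 or 50 added, total counts, TMM, FPKM with 0.5 added, a floor of 100 reads or none, subunits by structure and, added after the data were seen, members without exon overlap. Copies made by PCR were not removed by molecular identifiers.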

Additional observations from a re-analysis of the deposited data

Results flagged for a closer look

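The median log2 ratio of the 78 members had, with the deposited scaling, opposite signs in the 2 cultures with knockdown, and in the 2 kinds of cell with OGD. The knockdown median was -0.19 under OGD and 0.19 in normal culture, a difference of -0.38. The OGD median was -0.44 in knockdown cells and 0.03 in control cells, a difference of -0.47. With total counts the signs were alike: the knockdown medians were 0.013 under OGD and 0.17 in normal culture, a difference of -0.16, and the OGD medians were -0.44 in knockdown cells and -0.28 in control cells, a difference of -0.16. With FPKM the differences were -0.14 for knockdown and -0.13 for OGD, again with like signs, and with TMM scaling the OGD medians were both below 0 and differed by -0.39. Both differences are the same contrast of 4 libraries, apart from the size factors of the tables and the order of taking medians. They were listed because the medians stood on opposite sides of 0, and neither difference was tested, since each group holds 1 library.

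Mrps28 was listed as a single gene because the counting intervals of its knockdown ratio lay on opposite sides of 0 in the 2 cultures, with log2 ratios of -0.51 under OGD and 0.62 in normal culture, and differed by at least 1. The difference was -1.12. It was -0.90 with total counts (-0.31 under OGD and 0.59 in normal culture) and -0.88 with FPKM, under the size of 1 that listed it. It was not tested. The 29 markers of neurons, glia and endothelium had the opposite signs, with medians of 2.08 under OGD and -4.33 in normal culture, and their part in these differences was not tested.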

How the results depend on the processing

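The members' medians for knockdown in normal culture (0.17 to 0.20) and for OGD in knockdown cells (-0.45 to -0.42) kept their sign under all alternatives run. For knockdown under OGD the median of -0.19 turned to 0.013 with total counts and 0.026 with FPKM, and the 1 member 2-fold lower became 0 with 50 added, with total counts and with FPKM. For OGD in control cells the median of 0.03 became -0.28 with total counts and -0.29 with FPKM. Its 3 members higher became 1 with total counts and 1 with FPKM, and its 3 lower became 8 with total counts, 5 with TMM and 7 with FPKM. These scalings moved the median of all genes as well, and the members' distance to it stayed between 0.04 and 0.07 for OGD in control cells. Without members that overlap another gene, the large minus small difference was 0.024 in place of 0.28 for OGD in control cells and -0.16 in place of 0.02 for OGD in knockdown cells, and the cause was not tested. Of 26 ratios of named genes past 2-fold, 4 were under it with FPKM, 3 with total counts and 1 with 50 added. Of all 160 ratios of named genes, 90 left their counting interval and 15 changed sign with FPKM, and 77 and 13 did with total counts. No paired analysis was possible because each group holds 1 library, and for the same reason no library could be left out. Depth was not the limit for most members, since all had at least 82 reads in every library.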

Other observations

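Genes for the transcription and upkeep of mitochondrial DNA, a list of 17, had medians of -0.39 for OGD in knockdown cells and 0.18 in control cells. In knockdown cells 6 were at least 2-fold lower under OGD and 0 were higher, and in control cells, where 16 passed the floor, 0 were lower and 1 was higher. Of all genes tested 17.1% were lower and 18.9% higher in knockdown cells, and 20.4% and 10.4% in control cells. Ppargc1b, a coactivator of mitochondrial biogenesis, had log2 ratios for OGD of -2.02 in knockdown cells and -0.76 in control cells, and Myc, a transcription factor, had 0.96 and 1.65. With knockdown the medians were -0.39 under OGD and 0.29 in normal culture. Pprc1, a coactivator related to Ppargc1b, had -1.75 under OGD and -0.08 in normal culture with knockdown. Mterf1b, a gene of the mitochondrial termination factor family, had -0.72 and 1.55. Reads of Mterf1b were few, at 15 in knockdown and 25 in control cells under OGD, and 62 and 13 in normal culture.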
